A study of Mus musculus with 4 samples.

Results

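The Schlafen family was examined in T8 leukemia cells with and without re-expressed IRF4. Its members were the 7 genes *Slfn1*, *Slfn2*, *Slfn3*, *Slfn4*, *Slfn5*, *Slfn8* and *Slfn9*, taken by symbol from a table of counts for 55359 Ensembl gene identifiers. All 7 were in the table. The filter on low counts was passed by 6 of them, and *Slfn4* did not pass.

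T8 is a cell line grown out of 1 primary preB cell leukemia of an *Irf4-/-* mouse, so both groups lacked a functional *Irf4* gene and both represent 1 tumor. One group received an empty retroviral vector that carries only GFP (EV-RV), the other the same kind of vector with IRF4 in addition to GFP (IRF4-RV), and RNA was taken at 24 h from the cells that had survived. Each group held 2 bulk RNAseq libraries, which the series calls biological replicates, and the comparison asked which transcripts differ when the transcription factor IRF4 is put back. Titles and tissue in the labels say T8, which is used here, although their protocol text speaks of T11 cells.

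Schlafen proteins share a conserved N-terminal core that binds and, in some members, cuts tRNA. The mouse genes form 1 cluster on chromosome 11 and are sorted by protein size: short members (*Slfn1*, *Slfn2*), intermediate members (*Slfn3*, *Slfn4*) and long members with an added helicase-like domain (*Slfn5*, *Slfn8*, *Slfn9*). Several are known as genes that type I interferon induces, and *Slfn2* is known for keeping lymphocytes and monocytes quiescent. IRF4 is a B cell factor that binds DNA at interferon-response repeats or, together with an ETS family factor such as PU.1, at composite elements.

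Library depth was 31686715 and 31230223 counts for EV-RV, while IRF4-RV had 34771970 and 37817752. Levels are given as CPM, counts scaled to a common library size with TMM factors, and 3 counts equal between 0.0823 and 0.0951 CPM, the lowest level taken as detected. The 2 libraries of a group were not the same library deposited again, since their counts differed beyond counting error (chi-square over its degrees of freedom 16.2 for EV-RV, 15 for IRF4-RV). *Irf4* itself had 8070 and 7600 counts with EV-RV, against 95578 and 90693 with IRF4-RV. Vector reads and reads of the endogenous gene are not told apart in these counts, and *Irf4-/-* cells with EV-RV also had reads assigned to *Irf4*. Of the B progenitor markers, *Cd79a* was present at a high level (909.5 and 921.2 CPM with EV-RV). Stromal cell markers had a summed level of 47.6 and 88.8 CPM with EV-RV, against 46.9 and 220.9 CPM with IRF4-RV. Replicate 2 was thus the higher in both groups, and IRF4-RV 2 stood furthest apart.

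Sequences upstream of the family are shown because IRF4 can bind DNA, and the members differ in whether their promoters hold letters of the kind that IRF factors read. The windows are from RefSeq on GRCm38.p6 and run from 250 bases before to 50 bases after the start of a transcript. The 7 members and *Slfn14* had such a window, and *Slfn8* had a pair. An IRF repeat (GAAANNGAAA, searched on both strands) was found for *Slfn5* at -155 to -146, *Slfn8* at -48 to -39 and *Slfn9* at -45 to -36. An ETS-IRF composite (GGAANNGAAA) was found for *Slfn2* at -59 to -50. Neither was found for *Slfn1*, *Slfn3* or *Slfn4*. The stretches below read 5′ to 3′ on the strand of the gene, with both motifs in capitals. In *Slfn2*, *Slfn8* and *Slfn9* the motif lies on the opposite strand, so the capitals are its reverse complement.
*Slfn2*, chr11:83064952-83065111, plus strand: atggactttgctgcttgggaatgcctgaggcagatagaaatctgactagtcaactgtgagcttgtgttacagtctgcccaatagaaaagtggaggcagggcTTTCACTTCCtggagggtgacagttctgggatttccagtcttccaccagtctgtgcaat
*Slfn5*, chr11:82951942-82951984, plus strand: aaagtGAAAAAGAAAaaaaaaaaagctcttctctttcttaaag
*Slfn8*, chr11:83020811-83020970, minus strand: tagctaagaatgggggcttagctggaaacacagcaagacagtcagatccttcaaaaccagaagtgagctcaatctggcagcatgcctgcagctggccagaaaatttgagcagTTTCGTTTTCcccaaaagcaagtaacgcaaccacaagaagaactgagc
*Slfn9*, chr11:82991831-82991990, minus strand: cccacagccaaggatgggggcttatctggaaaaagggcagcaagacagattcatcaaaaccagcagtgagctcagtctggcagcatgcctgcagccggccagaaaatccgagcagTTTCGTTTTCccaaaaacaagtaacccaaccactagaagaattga
*Slfn3*, chr11:83191170-83191329, plus strand: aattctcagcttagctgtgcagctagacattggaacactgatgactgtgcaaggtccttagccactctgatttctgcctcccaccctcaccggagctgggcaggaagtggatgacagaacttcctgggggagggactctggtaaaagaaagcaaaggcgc
*Slfn1*, chr11:83116660-83116819, plus strand: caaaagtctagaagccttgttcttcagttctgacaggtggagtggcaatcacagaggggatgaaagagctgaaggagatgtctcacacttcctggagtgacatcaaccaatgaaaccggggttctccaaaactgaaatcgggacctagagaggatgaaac

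The IRF repeat occurs in 3.99% of the 27025 genes with a window and the composite in 3.16%, and 6.82% hold at least 1 of them. The *Slfn2* match reads GGAAGTGAAA, and *Slfn8* and *Slfn9* carry the same match, GAAAACGAAA. Their windows were 81.1% identical (248 of 306 aligned columns), while all other pairs among the 7 members and *Slfn14* were between 47.0% and 52.8% identical. The *Slfn5* stretch lies inside the annotated gene, after its GENCODE start, and is cut short at an annotated exon. An AP-1 site (TGANTCA) was found in the windows of *Slfn4* and *Slfn14*, as in 8.97% of genes. The STAT-type GAS (TTCNNNGAA), in 9.55% of genes, and the AP-1-IRF composite (GAAATGANTCA), in 0.141%, were in none of the 9 windows. A match is a description of letters and not a bound site.

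With IRF4-RV, 5 of the 6 members tested were higher and 1, *Slfn3*, was lower. Across all genes tested, edgeR's quasi-likelihood test called 29.7% at an FDR of 0.1, with 16.0% higher and 13.7% lower with IRF4-RV. The groups did not overlap for any of the 6 members, against 31.3% of all genes with IRF4-RV above EV-RV and 29.9% with IRF4-RV below. *Slfn5* and *Slfn1* passed the filter only through their IRF4-RV counts, so that a difference was built into their being tested. The median log2 fold change of the 6 was 2.67, that of the other 4 (*Slfn2*, *Slfn8*, *Slfn9* and *Slfn3*) was 1.43, and that of all 14637 genes tested was 0.0073. The sizes were far apart within the family, from a rise of *Slfn5* of 5.70 on the log2 scale to a 1.57-fold fall of *Slfn3*.

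**Figure D1:**
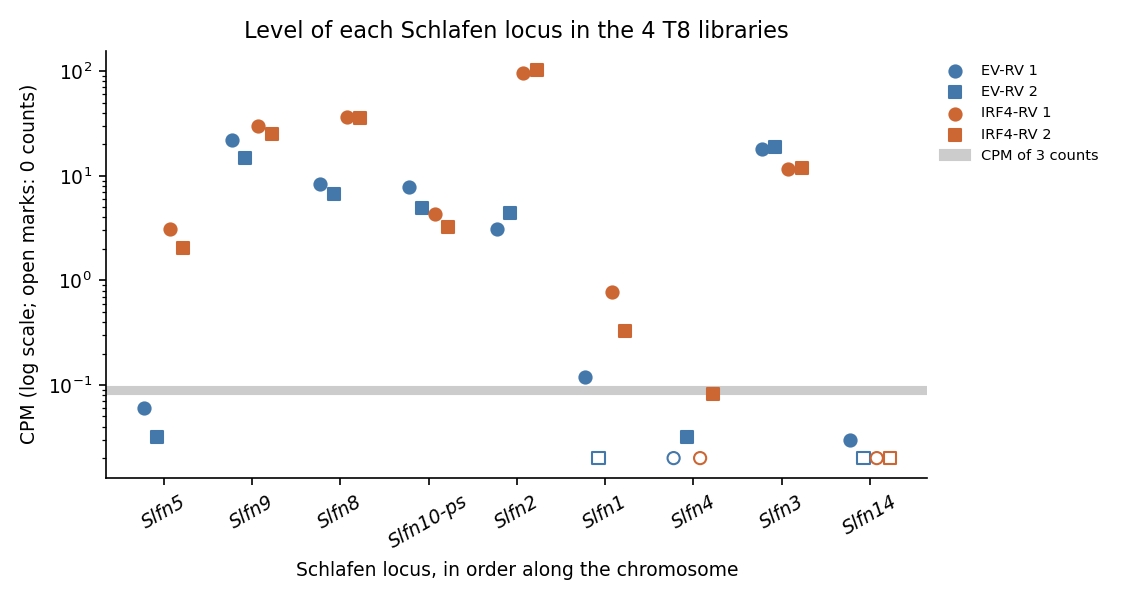
CPM (log scale) of each Schlafen locus of the cluster in the 4 libraries, in the order of the genes along the chromosome; circles and squares are replicates 1 and 2, open marks are libraries with 0 counts, and the gray band is the CPM of 3 counts. *Slfn2* moved from 3.11 and 4.44 to 95.4 and 102.3 CPM, while *Slfn4* and *Slfn14* stayed at or below the band in all libraries.

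Among the short members, *Slfn2* (ENSMUSG00000072620, chromosome 11, 83065112 to 83070678, plus strand), which protects tRNA from cleavage and restrains the division of resting lymphocytes, had the most reads with IRF4-RV. Its counts were 104 and 140 with EV-RV, against 3233 and 3728 with IRF4-RV. Both EV-RV libraries were low and both IRF4-RV libraries high, and the spread within a group was small beside the gap between them. The level rose from 3.78 ± 0.935 to 98.9 ± 4.89 CPM (SD, n = 2), a log2 fold change of 4.71 (SE 0.152, edgeR adjusted p = 1.71e-06). It ranked 44 of 14637 genes by log2 fold change. Leaving out any library gave 4.47 to 4.99.

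*Slfn1* (ENSMUSG00000078763, 83116849 to 83122670, plus strand), the founding member, first described as growth-suppressing in thymocytes, remained scarce. It had 4 and 0 counts with EV-RV, against 26 and 12 with IRF4-RV. The IRF4-RV libraries were the higher ones, but differed from each other by 0.767 against 0.329 CPM. The ratio of the summed counts, scaled to library size, was 8.77 with an exact 95% interval of 3.16 to 33.8, which covers counting error only. The edgeR log2 fold change was 3.08 (SE 0.953, adjusted p = 0.0539). This call was lost without EV-RV 2 (2.15, edgeR adjusted p = 0.182) and without IRF4-RV 1 (2.34, edgeR adjusted p = 0.130), and DESeq2 gave no adjusted p for the gene. Without EV-RV 1 the remaining control count was 0, and no fold is given.

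Of the intermediate members, *Slfn3* (ENSMUSG00000018986, 83191330 to 83215154, plus strand), studied in T cells and in gut epithelium, went the opposite way. Its counts were 600 and 595 with EV-RV, against 393 and 434 with IRF4-RV. Replicates lay close together in both groups, with 18.0 and 18.9 CPM against 11.6 and 11.9 CPM. The log2 fold change was -0.65 (SE 0.102, edgeR adjusted p = 0.00348), and stayed between -0.69 and -0.61 when any library was left out. Some 16.0% of the 50-base words of its transcripts also occur in transcripts of other genes, chiefly *Slfn4* and the neighboring *Gm11427*. *Gm11427*, with 385 and 355 counts against 432 and 483, was not called (log2 fold change 0.19, edgeR adjusted p = 0.257).

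*Slfn4* (ENSMUSG00000000204, 83175186 to 83190216, plus strand), known from macrophages and other myeloid cells, had 0 and 1 counts with EV-RV, against 0 and 3 with IRF4-RV. No library exceeded 3 counts, and no fold is given. A difference among counts this low was not detectable at this depth. It lies between *Slfn1* and *Slfn3*, and shares 11.3% of its 50-base words with other genes, including *Slfn3* and *Slfn2*.

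The long members also differed in size of change. *Slfn5* (ENSMUSG00000054404, 82951349 to 82964840, plus strand), a nuclear protein, was close to undetected with EV-RV. It had 2 and 1 counts there and 106 and 75 with IRF4-RV. Both control libraries lay below the level of 3 counts and both IRF4-RV libraries far above it, at 3.13 and 2.06 CPM. The count ratio was 55.7 with an exact 95% interval of 18.8 to 272.7, and the edgeR log2 fold change was 5.70 (SE 0.522, adjusted p = 0.000254). The log2 fold change stayed between 5.35 and 6.19 when any library was left out, and its rank was 27 of 14637. The antisense gene *Slfn5os* overlaps 8.84% of the exonic bases of *Slfn5* and had 0 counts in all 4 libraries. Whether counting used the strand is not given, so reads in that overlap cannot be assigned to either gene.

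*Slfn8* (ENSMUSG00000035208, 83002158 to 83020810, minus strand) rose from a level that was already clear of the detection limit. Its counts were 277 and 210 with EV-RV, against 1226 and 1312 with IRF4-RV. The IRF4-RV replicates nearly coincided at 36.2 and 36.0 CPM, above 8.29 and 6.66 CPM with EV-RV. The change was 4.82-fold, or 2.27 on the log2 scale (SE 0.124, edgeR adjusted p = 2.17e-05), and 2.12 to 2.43 with any library left out.

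*Slfn9* (ENSMUSG00000069793, 82978390 to 82991830, minus strand), the neighbor with the similar promoter window, changed little beside *Slfn8*. It had 734 and 464 counts with EV-RV, against 1010 and 919 with IRF4-RV. The EV-RV libraries were far apart, at 22.0 and 14.7 CPM, and the higher of them came near the lower IRF4-RV library at 25.2 CPM. The log2 fold change was 0.58 (SE 0.182, edgeR adjusted p = 0.0553). The call was lost without EV-RV 2 (0.32, edgeR adjusted p = 0.181) and with scaling to library size only (0.49, edgeR adjusted p = 0.137).

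The pseudogene *Slfn10-ps* (ENSMUSG00000072621, 83028130 to 83040042, minus strand), beside *Slfn8*, had 262 and 154 counts with EV-RV, against 146 and 119 with IRF4-RV. The EV-RV libraries were the higher ones, with 4.88 CPM in EV-RV 2 close to 4.31 CPM in IRF4-RV 1. Its log2 fold change of -0.75 (SE 0.254, edgeR adjusted p = 0.0726) was not called without EV-RV 1 (-0.37, edgeR adjusted p = 0.393) or without IRF4-RV 2 (-0.56, edgeR adjusted p = 0.116). No promoter window was at hand for *Slfn10-ps*. *Slfn14*, a long member known from platelets and red blood cells, had 1 count in EV-RV 1 and 0 in the other libraries, and the Schlafen-like gene *Slfnl1* had 1 count in IRF4-RV 2 only.

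**Figure D2:**
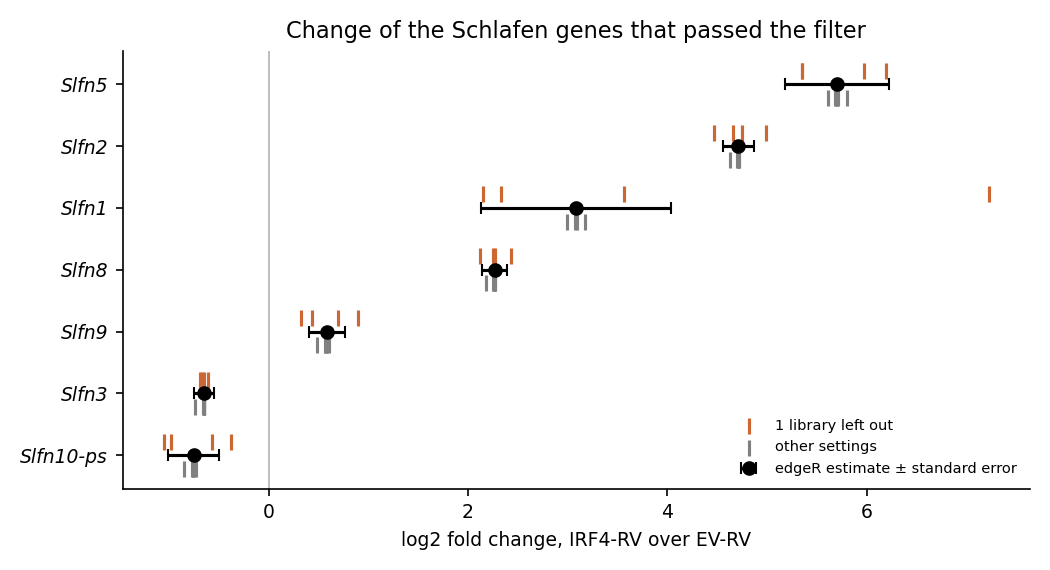
edgeR log2 fold change (IRF4-RV over EV-RV) with its standard error for the Schlafen genes that passed the filter, with orange ticks for each library left out and gray ticks for other settings. *Slfn5*, *Slfn2* and *Slfn8* stayed far above 0 and *Slfn3* stayed below 0, while the ticks of *Slfn1* spread from 2.15 to 7.22, the latter fitted with a control count of 0.

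*Slfn8*, *Slfn9* and *Slfn10-ps* lie next to each other and share sequence, so their reads were also compared within each library. Of the 50-base words, 14.6% of *Slfn8*, 11.9% of *Slfn9* and 19.7% of *Slfn10-ps* occur in another gene, mostly in each other. How the authors' counting treated such reads is not given in the sources used here. The ratio of *Slfn8* to *Slfn9* counts was 0.377 and 0.453 with EV-RV, against 1.21 and 1.43 with IRF4-RV. That of *Slfn8* to *Slfn10-ps* was 1.06 and 1.36 against 8.40 and 11.0, and that of *Slfn9* to *Slfn10-ps* 2.80 and 3.01 against 6.92 and 7.72. The 3 related genes thus did not change by 1 common factor in these counts. The ratio of *Slfn2* to *Slfn3* moved furthest of those computed, from 0.173 and 0.235 to 8.23 and 8.59. The groups did not overlap in any of these ratios, but with 2 libraries against 2 an exact two-sided permutation test cannot go below 0.333, and none was run.

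Levels of different genes were compared per kilobase of exon. With EV-RV, *Slfn3* was highest at 5.40 ± 0.185 CPM per kb (SD, n = 2). It was followed by *Slfn9* (3.08 ± 0.862), *Slfn2* (2.27 ± 0.562) and *Slfn8* (1.83 ± 0.283), whose neighbors in this order did not differ beyond their spread. *Slfn1*, *Slfn5* and *Slfn4* were at or below 0.0321 CPM per kb. With IRF4-RV the order became *Slfn2* (59.4 ± 2.94), *Slfn8* (8.82 ± 0.0290), *Slfn9* (4.61 ± 0.543), *Slfn3* (3.45 ± 0.0653), *Slfn5* (0.410 ± 0.120) and *Slfn1* (0.294 ± 0.166), with *Slfn4* last. Only the neighbors *Slfn5* and *Slfn1* had ranges that overlapped between libraries in that order.

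Summed over the family, the level per length was 12.9 and 12.3 CPM per kb with EV-RV, against 75.5 and 78.5 with IRF4-RV. *Slfn2* made up 14.5% and 21.7% of this sum with EV-RV, against 76.0% and 78.3% with IRF4-RV. The share of *Slfn3* was 40.8% and 44.9% with EV-RV, against 4.50% and 4.45% with IRF4-RV. The share of *Slfn9* also shrank, from 28.5% and 20.0% to 6.62% and 5.38%, although its own level did not fall. In summed counts, which are not corrected for length, the family had 1721 and 1411 reads with EV-RV, against 5994 and 6483 with IRF4-RV.

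**Figure D3:**
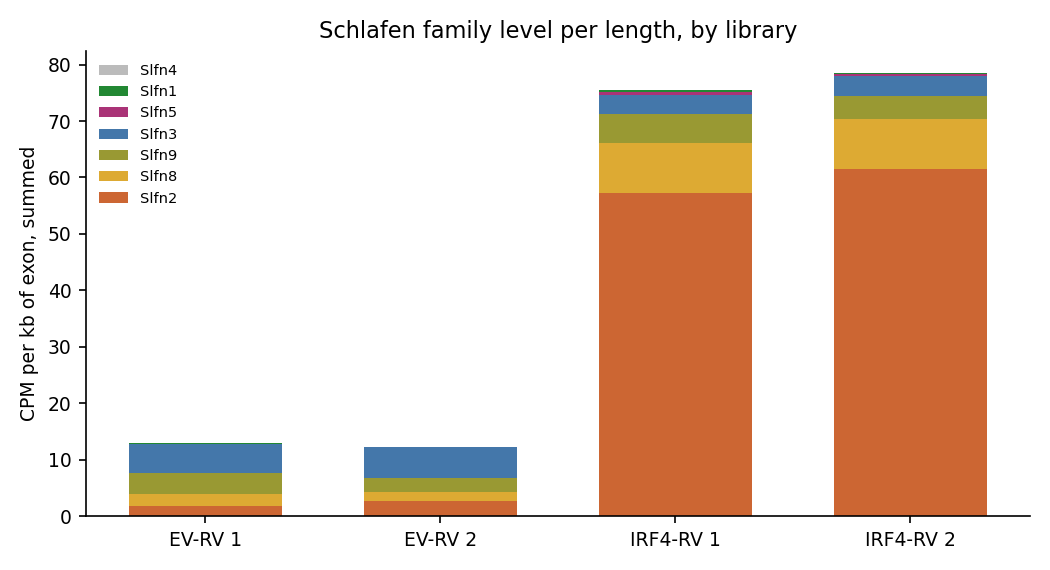
Level of the 7 Schlafen members per kb of exon, summed in each library, with 1 color for each gene. The sum was 12.9 and 12.3 CPM per kb with EV-RV, against 75.5 and 78.5 with IRF4-RV, and most of the added height is *Slfn2*.

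The genes around the family were read in the same fit. The cluster spans 335.4 kb, from 82951349 to 83286726 on chromosome 11. Within 500 kb of it and inside it lie 54 other annotated genes, of which 21 were tested. Among these, 3 were higher, 3 were lower and 15 were not called, with a median log2 fold change of -0.0439. These counts are near the shares over all genes tested, 16.0% higher and 13.7% lower. Inside the cluster, *Gm11425*, *Gm20234*, *AI662270* and *Gm11427* were tested and none was called, with log2 fold changes of 0.01, -0.06, 0.02 and 0.19. *Gm20234* lies across *Slfn2* on the opposite strand without exonic overlap, and had 13, 12, 11 and 15 counts while *Slfn2* rose. Outside the cluster, on the side of *Slfn5*, *Nle1* was lower (log2 fold change -0.30, edgeR adjusted p = 0.0546).

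Further out on that side, *Lig3* was lower (log2 fold change -0.27, edgeR adjusted p = 0.0453). Past the other end of the cluster, the adaptor subunit gene *Ap2b1* was higher (0.28, edgeR adjusted p = 0.0281). The chemokine genes *Ccl3* and *Ccl4*, further out on that side, were higher too. *Ccl3* had 252 and 234 counts with EV-RV, against 836 and 808 with IRF4-RV (log2 fold change 1.65, edgeR adjusted p = 4.94e-05), and *Ccl4* had 0 and 1 against 12 and 13, and likewise was tested only because of its IRF4-RV counts. Other neighbors tested, such as *Taf15* (log2 fold change -0.24) and *Ccl9* (-0.94, edgeR adjusted p = 0.170), did not pass.

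**Figure D4:**
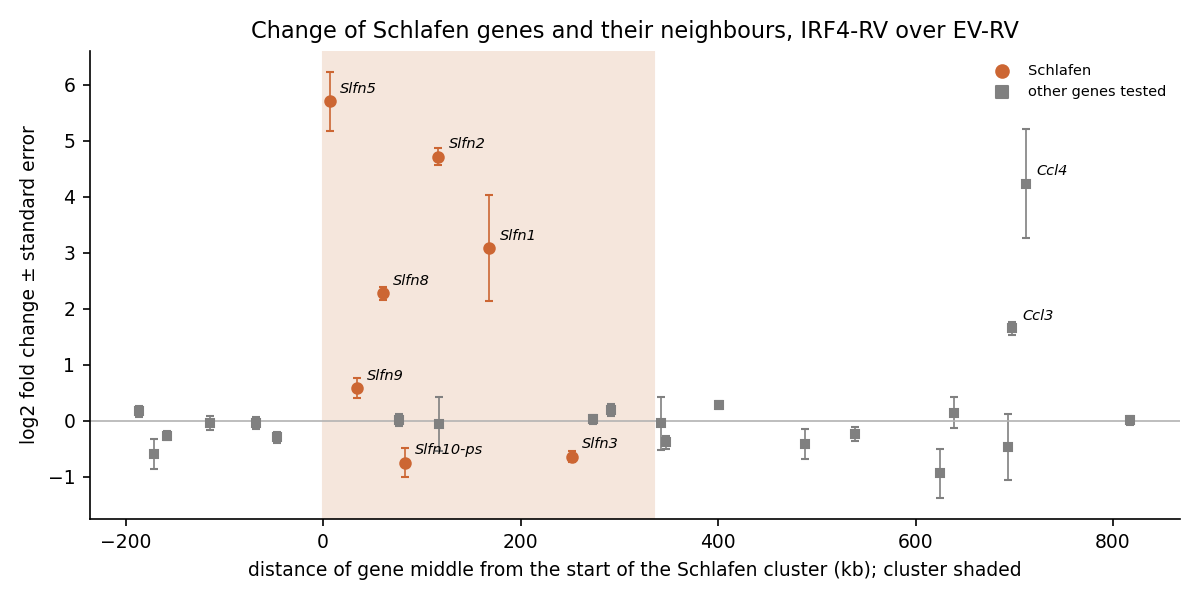
edgeR log2 fold change with its standard error for tested Schlafen genes (orange circles) and other tested genes (gray squares), by distance in kb of the gene's middle from the start of the Schlafen cluster, which is shaded. Inside the shaded cluster the Schlafen genes range from -0.75 to 5.70, while the other genes there lie between -0.06 and 0.19.

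For each tested member, the genes with the most similar profile were found by the distance between log2 CPM values over the 4 libraries, after centering on the EV-RV mean. *Slfn2* was nearest to *Gbp6* (distance 0.175), *Isg15* (0.279) and *Ifi44* (0.355), which are interferon-induced genes. *Slfn8* was nearest to *Haao* (0.0928), *Sp100* (0.151) and *Pml* (0.169), the last pair coding for proteins of nuclear bodies. *Sp100* is also in the list of interferon targets read below. *Slfn5* was nearest to *Gm31718* (0.453), *Iglv3* (0.556) and again *Ifi44* (0.686). *Gbp6*, *Gm31718* and *Iglv3* had few EV-RV counts and passed the filter only through their IRF4-RV counts. The other members had neighbors of other kinds.

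*Slfn3* was nearest to *Agpat2* (0.0178), the DNA polymerase epsilon subunit gene *Pole2* (0.0217) and *Abhd17c* (0.0234). *Slfn9* was nearest to *Ncoa7* (0.0478), *Bbx* (0.0801) and *Ece1* (0.0994), and *Slfn1* to *Rnase6* (0.720), *Gm11772* (0.852) and *Gimap4* (0.870). With 4 libraries in a pair of groups, this measure gives most weight to the size of the change, and none of these 18 choices was also made by Pearson correlation.

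The interferon pathway, in which Schlafen genes are known targets, was read from gene lists beside the family. For this and the later lists, the share over all genes tested was 16.0% called higher and 13.7% called lower. Of 11 ligand genes, 7 had 0 counts in every library, and *Ifnb1* had 0 and 3 counts with EV-RV, against 3 and 0 with IRF4-RV. Only *Ifng* was tested, with 0 and 0 counts against 29 and 35 (0.856 and 0.961 CPM with IRF4-RV). It passed the filter only through those counts, so its call was built into its being tested. Of 6 receptor genes 5 were higher (median log2 fold change 0.77), among them *Ifnlr1* (1.10), *Ifnar1* (1.02), *Il10rb* (0.85) and *Ifnar2* (0.69). Of 6 signal transducers 3 were higher (median 1.01), among them *Stat2* (1.88) and *Irf9* (1.72).

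Of 8 interferon regulatory factors tested, *Irf4* included, 6 were higher and 1 was lower (median 0.996). *Irf4* is the gene that the vector carries, so its rise was built in, and *Irf9* is also counted among the signal transducers. The log2 fold changes were 1.93 for *Irf7*, 1.38 for *Irf1* and -0.32 for *Irf8*. Of 34 interferon targets outside the family, 33 were higher and 1, *Ddx60*, was not called (median 2.08). The members are spread around this list, with *Slfn5*, *Slfn2*, *Slfn1* and *Slfn8* above its median, and *Slfn9* and *Slfn3* below its lowest value of 0.95. The furthest moved targets were *Rsad2* (7 and 5 counts against 870 and 862), *Ifit1* (3 and 0 against 92 and 221), *Mx1* (0 and 1 against 47 and 33) and *Ifit3b* (2 and 1 against 48 and 116). These targets, and also *Mx2* and *Ifit3*, passed the filter only through their IRF4-RV counts. A rise was thus built into their being tested, and they are among the 33. Of 5 feedback inhibitors 1, *Usp18*, was higher (5.60) and 4 were not called (median 0.02).

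Lists tied to what Schlafen proteins are known to do were read the same way. Of 7 genes for tRNA cleavage and its control, 2 were higher, among them the ribonuclease inhibitor gene *Rnh1* (log2 fold change 0.63). *Nsun2* (-0.51) and *Elac2* (-0.40) were lower, and 3 were not called (median 0.08). All 8 genes of quiescence and growth arrest were higher (median 0.82), among them *Klf2* (2.06), *Btg2* (1.67), *Btg1* (1.44) and *Foxo1* (1.10). Of 8 G1 cyclins and their kinases, *Ccnd2* was higher (1.37), *Ccnd3* (-0.80) and *Ccne2* (-0.53) were lower, and 5 were not called (median -0.21). Over all genes tested, 29.7% were called, 16.0% higher and 13.7% lower. These lists were chosen with earlier results of these data known. They share libraries with the family, and their link to the change in Schlafen genes was not tested.

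**Figure D5:**
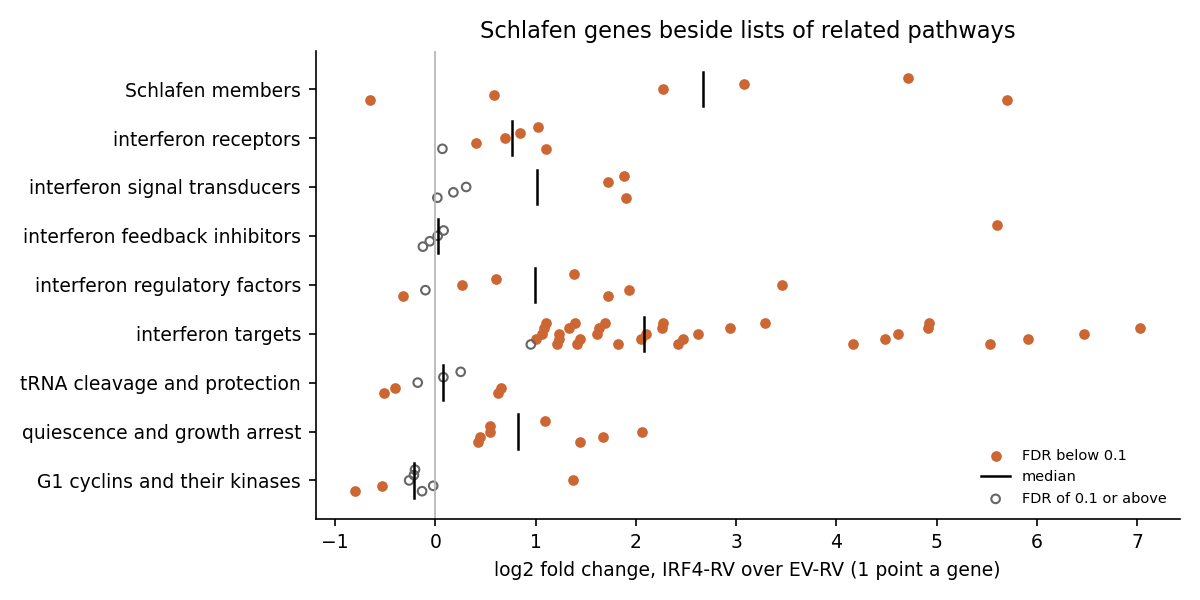
edgeR log2 fold change (IRF4-RV over EV-RV) of each tested gene, 1 point a gene, for the Schlafen members and 8 lists of related pathways, filled where the FDR was below 0.1, with the median as a black bar. The 6 Schlafen members run from -0.65 to 5.70 and the 34 interferon targets from 0.95 to 7.03.

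Because some Schlafen genes are strongly expressed in other blood cells, markers of such cells were counted beside them. Of 12 T and NK cell markers, 5 had 0 counts in all libraries (*Cd8a*, *Cd8b1*, *Trbc1*, *Ncr1*, *Gzmb*). Their summed level was 20.6 and 21.1 CPM with EV-RV, against 13.4 and 13.8 CPM with IRF4-RV. Most of it was *Trac* (18.4 and 19.1 CPM against 11.5 and 11.5 CPM). It was the 1 marker called of 3 tested, and fell by 0.70 on the log2 scale (edgeR adjusted p = 0.00229). *Klrb1c* (log2 fold change 0.13) and *Prf1* (-0.14) were tested and not called. Of 11 macrophage and monocyte markers, *Adgre1* and *Marco* had 0 counts throughout, and the summed level was 8.26 and 7.35 CPM against 12.9 and 11.0 CPM. *Mrc1* was higher (3.26) and *Ccr2* lower (-0.70) among the 3 tested.

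Of 11 neutrophil markers, 5 had 0 counts throughout and *Ly6g* was the only one tested, with 1 and 0 counts against 71 and 58, having passed the filter only through its IRF4-RV counts. Their summed level was 0.210 and 0.190 CPM with EV-RV, against 2.18 and 1.81 CPM with IRF4-RV. Without *Ly6g*, the other 10 markers had 12 counts in all with EV-RV, and 11 with IRF4-RV. *Slfn4*, itself known from myeloid cells, had no more than 3 counts in these libraries. Of 12 B progenitor markers, 2 were higher, 4 were lower and 6 were not called (median log2 fold change -0.16), with *Vpreb1* (-1.49), *Igll1* (-1.30), *Enpep* (-1.17) and *Spn* (0.84) the furthest moved. In bulk libraries a change in the number of cells of a type and a change in RNA per cell cannot be told apart.

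Of 8 stromal markers 6 were tested and none was called by edgeR at an FDR of 0.1. They set IRF4-RV 2 apart, with 2265 counts of *Col1a1* there against 528 in IRF4-RV 1. EV-RV 2, with 850 counts, was also above EV-RV 1, with 496. T8 was first grown on ST2 stromal cells and, per the study, no longer needed them after several passages. The source of the stromal reads was not tested. Without IRF4-RV 2, the log2 fold changes were 4.66 for *Slfn2*, 5.97 for *Slfn5* and 2.27 for *Slfn8*. Those of *Slfn1*, *Slfn9* and *Slfn3* were 3.56, 0.70 and -0.67. Without EV-RV 2, they were 4.99 for *Slfn2*, 5.35 for *Slfn5* and 2.12 for *Slfn8*. *Slfn1*, *Slfn9* and *Slfn3* then had 2.15, 0.32 and -0.61.

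Among all genes, the share holding the IRF repeat or the ETS-IRF composite in the promoter window was 6.42% of the 9244 tested genes that had a window. It was 11.2% of 1746 genes called higher (195 genes) and 3.72% of 1451 called lower (54 genes). Among genes called with a log2 fold change above 2 it was 28.4% (44 of 155). Within the family, *Slfn2*, *Slfn5*, *Slfn8* and *Slfn9* held one of them and were higher, *Slfn1* held neither and was higher, and *Slfn3* held neither and was lower. *Slfn2*, *Slfn5* and *Slfn8* are themselves among the 44 genes, and *Slfn5* was tested only through its IRF4-RV counts. The same repeat stood before *Slfn8* and *Slfn9*, which changed 4.82-fold and 1.50-fold. Binding was not measured, and which IRF factor, if any, acts at these letters was not tested.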

How the data were processed

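Bulk RNAseq of 4 T8 libraries was analyzed. Groups and replicate numbers came from the sample labels. Per the labels and the study's methods, the authors aligned reads to GRCm38 with STAR (2.4.0j) and counted them per gene with featureCounts, and the deposited values are raw counts without normalization. The study's methods name an Ensembl annotation, but identifiers in the table that GENCODE M21 lacks leave its release uncertain. How strand and multi-mapped reads were handled is not given in the sources used here. Symbols, coordinates and exon lengths came from GENCODE M21, which matched 52083 of 55359 identifiers.

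The filterByExpr function kept 14637 genes, and these entered the quasi-likelihood test of edgeR 4.0.16 (R 4.3.3) after TMM scaling. Adjustment was by Benjamini-Hochberg over all of them, at the study's FDR cutoff of 0.1. CPM per kb used the union of exons. Promoter windows are RefSeq's. Count ratios carry exact Clopper-Pearson intervals, which cover counting error only.

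Named were the 7 members, *Slfn10-ps*, *Slfn14*, *Slfnl1* and *Irf4*, tested genes within 500 kb of the cluster, up to 4 genes of the largest change past the cutoff from each of 14 lists plus *Stat2*, *Irf9*, *Irf1*, *Irf7* and *Irf8*, and for each tested member the 3 nearest genes with a mean of at least 50 counts. *Ifnb1*, *Ddx60*, *Cd79a*, *Col1a1*, *Slfn5os*, the marker genes at 0 and the gene list members not called were named after their values were seen. Some genes that this rule names are not reported here. The members and lists were chosen with earlier results of these data known. Alternatives were DESeq2 1.42.0, other scalings, other filters on low counts, a replicate block, an FDR of 0.05, another gene length, another measure of likeness and leaving out each library.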

Additional observations from a re-analysis of the deposited data

How the results depend on the processing

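The number of genes called ran from 3347 to 6394 over the alternatives (4349 as reported), with 3424 to 3642 when 1 library was left out. With library size only, 1743 genes were higher and 2867 lower, against 2340 and 2009 as reported. Schlafen calls ran from 4 to 6 of 6 tested, with 4 at an FDR of 0.05 or without EV-RV 2, and 5 with DESeq2, with library size only or without IRF4-RV 1. With CPM above 1 in 2 libraries, 5 of 5 were called. With all genes of at least 1 count, *Slfn4* was tested too and was not called, which gave 6 of 7. *Slfn2*, *Slfn5*, *Slfn8* and *Slfn3* kept direction and call under every alternative run, and no Schlafen gene changed direction. *Slfn9*, *Slfn1* and *Slfn10-ps* were not called at an FDR of 0.05. By the longest transcript, *Slfn3* stood at 6.50 and 4.15 CPM per kb. Where 1 library was left out, the lone library of its group was assumed to vary like the others.

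The fit with the replicate number as a block called 6394 genes and all 6 tested members. The labels give replicate numbers and the study's methods name no block, so whether same-numbered libraries belong together is not known. The correlation of same-numbered deviations over genes was 0.26. In the fit with the block, *Slfn9* (log2 fold change 0.60) and *Slfn10-ps* (-0.73) were both called. With the replicate block, 5 signal transducers, 7 G1 cyclins and kinases and 5 stromal markers were called, against 3, 3 and 0 as reported. With CPM above 1 in 2 libraries, 6 G1 cyclins and kinases and 0 interferon ligands were called, as *Ifng* was no longer tested. With library size only, 6 G1 cyclins and kinases were called, and with all genes of at least 1 count, 5 stromal markers. The causes were not tested.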
